A study of Homo sapiens with 15 samples.

Results

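The olfactory receptor genes of chromosome 11 were followed through platinum adduct maps of ovarian cancer cells. They were taken from the annotation alone, as protein-coding genes on chromosome 11 whose symbol is OR followed by a family number, a subfamily letter and a member number, which gave 171 of the 1317 protein-coding genes of the chromosome and 171 of the 399 olfactory receptor genes in the genome. A window was assigned to them when its midpoint lay in a gene body or within 5 kb of one, which gave 2697 of the 150008 windows on chromosome 11. Members separated by gaps under 500 kb were joined into 11 clusters, named here by their first and last gene, of which the 7 with at least 5 members were compared between groups.

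The libraries were made by Pt-exo-seq, in which exonucleases digest sheared genomic DNA up to a platinum adduct, so that the end of the sequenced molecule marks the adduct. They came from PEO1, a platinum-sensitive ovarian cancer line, and PEO4, its platinum-resistant partner derived from the same patient. There were 5 groups of 3 libraries: PEO1 untreated (0 µM), PEO1 after 16 µM cisplatin, PEO4 untreated (0 µM), PEO4 after 16 µM cisplatin and PEO4 after 32 µM cisplatin. Each line is a single cell line, and the labels do not say whether the 3 libraries of a group came from separate cultures, so that the p-values measure only the spread between these libraries. The deposited values were raw read counts in windows of 1 kb that step by 900 bp on hg19, with 27.7 to 56.6 M counts per library. The 12 member windows with no read in any library were left out, and in single libraries between 9.16% and 30.33% of member windows had a count of 0.

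Olfactory receptors are G protein-coupled receptors with 7 transmembrane segments, which bind odorants in the cilia of olfactory sensory neurons, and each such neuron expresses a single receptor gene. The family is the largest in the genome, grew by local duplication, and lies in tandem clusters in AT-rich, late-replicating DNA. Class I receptors (families OR51, OR52, OR55 and OR56) are the older, fish-like group and class II receptors are the rest. These genes are generally held to be silent outside the olfactory epithelium, although RNA was not measured in the libraries used here and their silence in PEO1 and PEO4 was taken as background. Cisplatin binds mainly to adjacent purines, GG and AG, on either strand, so that base composition sets how many sites a window offers.

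Most members carried their coding sequence in 1 exon (169 of 171), with a median coding length of 942 bases (864 to 1110). Among the 14535 pairs of members, the median protein identity was 36.5%, and 11 pairs reached 90%. The stretch that encodes the family's signature motif at the end of a transmembrane segment is given here, as an example of what the clusters share and of the sites it offers to platinum. It is given 5′ to 3′ on the coding strand from the GRCh37 reference, with GG and AG in capitals. A stretch that encodes the same residues was found in 37 members, and 1 member is given for each of 5 clusters.
OR56A3 (chr11:5968940-5968969, plus strand): atGGcctatgatcgttatgtAGccatctgc
OR2AG2 (chr11:6789808-6789837, minus strand): atGGcctatgacAGGtatgtGGccatttgt
OR4C15 (chr11:55322293-55322322, plus strand): atGGcctatgatcgttatgtGGccatttgc
OR6Q1 (chr11:57798788-57798817, plus strand): atGGcctatgatcgttatgtGGccatttgt
OR8D1 (chr11:124180282-124180311, minus strand): atGGcatatgatcgctatgttgccatctgt
On the coding strand of these 30 bases, OR2AG2 held 4 GG or AG steps and OR8D1 held 1, while the other 3 held 2 each. Sites on the opposite strand, read as CC or CT steps, numbered 4 in OR56A3 and 3 each in OR2AG2, OR4C15, OR6Q1 and OR8D1.

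The regions were poor in GC and in platinum sites. Member windows had 37.7% GC, against 41.6% in the other windows of chromosome 11. They held 8.69 GG or CC steps per 100 bases, against 10.83 elsewhere on the chromosome. At the same GC content the other windows held 8.77, so that the members differed little from chromosome 11 windows of their own GC content. AG or CT steps followed the same order, with 13.40 per 100 bases in member windows, 14.21 elsewhere and 13.48 elsewhere at the GC content of the members. The read count of a member region was therefore compared with the count expected from chromosome 11 windows of the same GC content in 1 percentage point steps, and the result is given as log2 of observed over expected, where 0 means the level of the chromosome and -1 means a fold of 0.5.

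The read level of a member varied with the place of its cluster on the chromosome, and the classes had much the same level where they were neighbours. In untreated cells the 67 members of the first 3 clusters, in the terminal part of the short arm, had a median of 0.177 reads per 1 kb window for each 1 M counts of the library (0.128 to 0.223). The 104 members of the other 8 clusters had a median of 0.327 (0.191 to 0.562), against 0.380 for the other 1146 genes of chromosome 11, whose GC content was higher (median 46.5%, against 37.4% for the members). All 55 class I members lay in the first cluster, with a median of 0.177. The 12 class II members of the next 2 clusters had a median of 0.173.

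**Figure D1:**
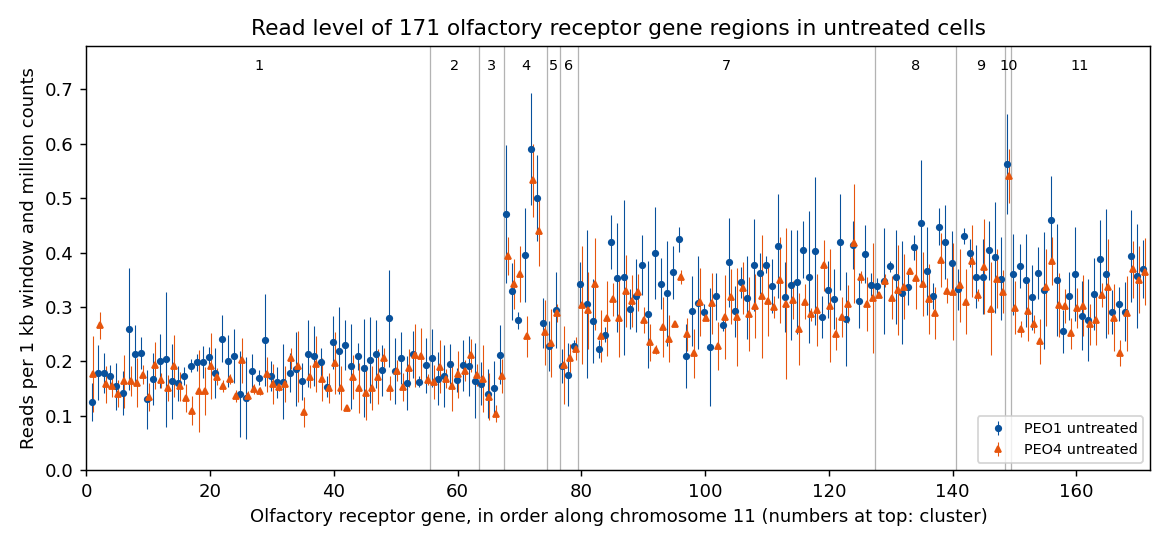
Reads per 1 kb window for each 1 M counts of the library (mean of 3 libraries, bars are SD) for each of the 171 gene regions in untreated PEO1 (circles) and untreated PEO4 (triangles), in gene order along chromosome 11, with cluster numbers at the top and cluster borders as grey lines. The 67 genes of clusters 1 to 3 lie between 0.128 and 0.223 as means over both lines, and OR4C3 in cluster 4 and OR2AT4, alone in cluster 10, stand highest.

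The largest cluster, OR52B4 to OR52W1 (chr11:4388493-6221416), holds the 55 class I genes on both sides of the beta-globin genes. In untreated PEO1 its log2 observed over expected was -1.04, -1.03 and -0.999, and in PEO1 after 16 µM cisplatin it was -1.14, -1.07 and -1.12. Untreated PEO4 gave -1.12, -1.12 and -1.07. PEO4 gave -1.08, -1.09 and -1.09 after 16 µM and -1.03, -1.01 and -1.08 after 32 µM. All 15 libraries therefore lay near a fold of 0.5 of the chromosome, in untreated and treated cells of both lines. The DNA between and around the receptor genes was equally low: the other windows within 1 Mb of this cluster stood at -1.07 ± 0.02 (SD, n = 3) in untreated PEO1 and -1.16 ± 0.01 in untreated PEO4.

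The 2 smaller clusters further along the short arm had the same level. OR2AG2 to OR2D3 (8 genes, chr11:6786857-6943225) stood at -1.04 ± 0.19 in untreated PEO1 and -0.94 ± 0.13 in untreated PEO4, with its surroundings at -1.05 ± 0.05 and -1.08 ± 0.02. OR5P2 to OR10A3 (4 genes, chr11:7817521-7963255) stood at -1.20 ± 0.27 and -1.22 ± 0.16, with its surroundings at -1.01 ± 0.01 and -1.04 ± 0.03. When windows outside the members were grouped into tiles of 1 Mb, the first 15 Mb of chromosome 11 formed an unbroken run of 15 tiles below -0.7 in both untreated lines, with medians of -1.01 in PEO1 and -1.0 in PEO4. The tile that followed was at -0.39 in PEO1 and -0.48 in PEO4, and no tile beyond it was below -0.7 in both lines. These 3 clusters lay inside that run.

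The opposite case was OR2AT4 (chr11:74792798-74807921), a class II receptor that stands alone on the long arm. It was at 0.55 ± 0.24 in untreated PEO1 and 0.55 ± 0.14 in untreated PEO4, a fold of 1.47 and 1.46. Its surroundings were at 0.60 ± 0.03 and 0.63 ± 0.01. It lay in a stretch between 64 and 91 Mb that held all 26 tiles above 0.3 in both lines, with medians of 0.53 in PEO1 and 0.56 in PEO4 and 1 lower tile inside it, at -0.09 and -0.03.

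The remaining clusters of the long arm were close to the chromosome. OR4A16 to OR5AK2 (48 genes, chr11:55110677-56757318), the second largest, was at -0.15 ± 0.04 in untreated PEO1 and -0.18 ± 0.02 in untreated PEO4, with surroundings at -0.15 ± 0.03 and -0.13 ± 0.01. OR9Q1 to OR5B21 (13 genes) was at -0.07 ± 0.02 and -0.08 ± 0.02, OR5AN1 to OR10V1 (8 genes) at 0.01 ± 0.12 and -0.02 ± 0.10, and OR6X1 to OR8A1 (22 genes, chr11:123624288-124452838) at -0.13 ± 0.06 and -0.18 ± 0.03. The clusters beside the centromere, OR4C13 to OR4C12 (2 genes) and OR4A5 to OR4C46 (3 genes), lay between these levels, at -0.51 ± 0.18 and -0.92 ± 0.21 in untreated PEO1, with surroundings at -0.57 ± 0.03 and -0.58 ± 0.14, and at -0.39 ± 0.22 and -0.70 ± 0.16 in untreated PEO4, with surroundings at -0.59 ± 0.02 and -0.59 ± 0.02.

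**Figure D2:**
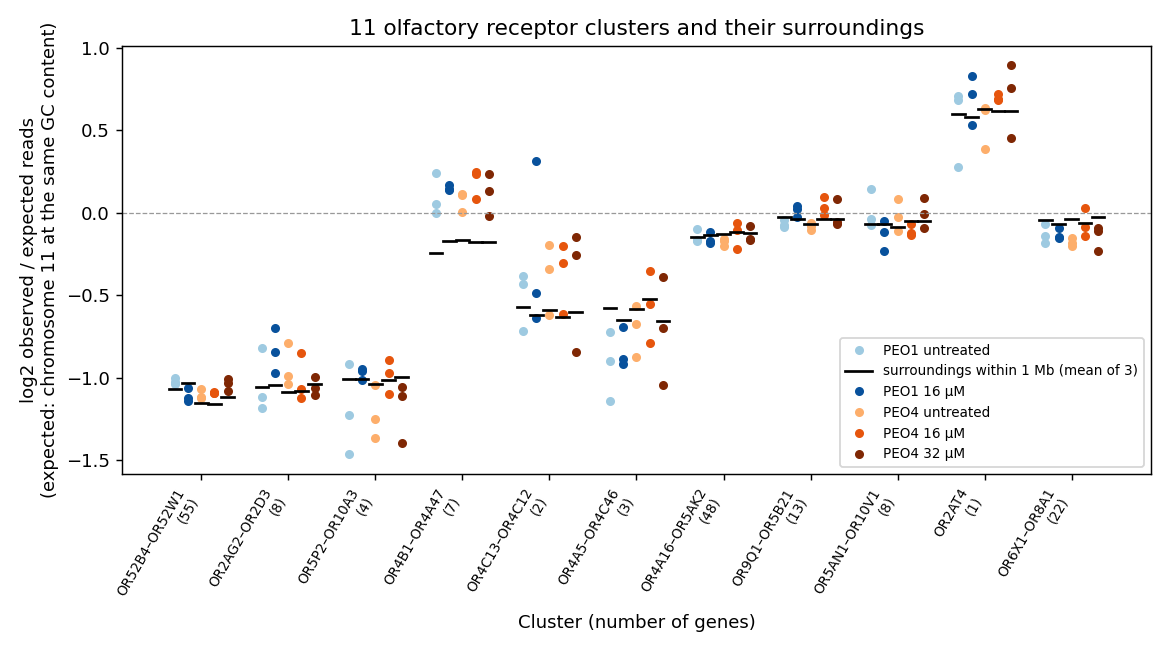
Log2 of observed over expected reads for each of the 11 clusters (number of genes in brackets) in the 15 libraries, coloured by group, with the mean level of the windows within 1 Mb outside the members as black bars. The first 3 clusters and their surroundings lie between -1.22 and -0.84 as group means, OR2AT4 and its surroundings lie above 0.5 as group means, and OR4B1 to OR4A47 lies above its surroundings.

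Across the 11 clusters, the level of a cluster followed that of its surroundings (Pearson's r = 0.95 in untreated PEO1 and 0.97 in untreated PEO4, Spearman's rho 0.85 and 0.81). The points share libraries, the chromosome and the reference windows, and 2 stretches of the chromosome account for the lowest and the highest levels. Read counts from genomic DNA follow both the number of DNA copies and the number of molecules that survive digestion, and with no copy number data used here these cannot be told apart. The low and high levels were present at similar size in untreated and treated cells, and their cause was not tested.

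When the expected count was taken from the windows within 1 Mb of the same cluster at the same GC content, the members no longer stood out. Pooled over the 171 genes, log2 observed over expected was -0.01, 0.03 and 0.05 in untreated PEO1, 0.02, 0.02 and -0.02 in PEO1 after 16 µM, -0.02, -0.01 and 0.00 in untreated PEO4, 0.08, 0.07 and -0.01 in PEO4 after 16 µM, and -0.03, 0.01 and 0.06 in PEO4 after 32 µM. Each group thus held values within 0.08 of 0. Against the whole chromosome the same windows had been at -0.41 ± 0.01 in untreated PEO1 and -0.45 ± 0.00 in untreated PEO4. The share of member windows with no read was slightly below that of their surroundings at the same GC content in all 15 libraries, which was not tested. In the library with the most, the first of PEO1 after 16 µM, it was 29.99% against an expected 30.38%. In the one with the fewest, the third of PEO4 after 16 µM, it was 8.79% against 9.56%. The gap was widest in the second of PEO4 after 32 µM, at 15.03% against 17.7%.

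Single members were also set against their own surroundings, a measure added after the data were examined. Over the 15 libraries, the mean log2 ratio of a member had a median of 0.01 and an SD over genes of 0.19 (-0.41 to 0.81), and for the other 1145 genes of chromosome 11 the SD was 0.25. In 2 of 171 members (1.17%) all 15 libraries were above the surroundings and in no member were all 15 below, whereas 6.23% of the 1316 gene regions of chromosome 11 lay on 1 side in all libraries (2.13% above and 4.1% below). The difference between these shares was not tested. Member regions held a median of 133.4 reads per library, and their spread between libraries was 21.8%, against 13.5% for all gene regions (median coefficients of variation).

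Those 2 members were neighbours, OR4C3 (chr11:48346472-48347507) and OR4C5 (chr11:48387037-48388017), class II receptors of the OR4 family in the cluster OR4B1 to OR4A47 near the centromere on the short arm. In CPM (reads scaled by TMM to the sum over all gene regions, a scale on which genes of different length are not compared), OR4C3 was at 13.46, 9.84 and 14.20 in untreated PEO1, 9.0, 9.27 and 13.24 in PEO1 after 16 µM, and 9.0, 11.68 and 11.12 in untreated PEO4. It was at 13.50, 11.12 and 10.54 in PEO4 after 16 µM and 11.16, 10.62 and 9.73 after 32 µM. The 5 groups overlapped. Against its own surroundings OR4C3 was at 0.78 on the log2 scale (0.41 to 1.17 over the 15 libraries) and OR4C5 at 0.81 (0.38 to 1.22). Neither shared a stretch of 100 identical bases, the read length, with another member region. Their cluster of 7 genes was the only tested one that stood above its surroundings by more than 0.2 in the mean of every group, at 0.38 ± 0.13 in untreated PEO1, 0.38 ± 0.05 in PEO1 after 16 µM, 0.29 ± 0.05 in untreated PEO4, 0.41 ± 0.10 in PEO4 after 16 µM and 0.33 ± 0.13 after 32 µM. Against the whole chromosome the cluster was at 0.096 ± 0.127 in untreated PEO1 and 0.073 ± 0.060 in untreated PEO4. Its surroundings were lower, at -0.247 ± 0.010 and -0.165 ± 0.036. Not all its genes were raised: against their own surroundings they ranged from -0.21 to 0.81, with OR4X1 and OR4S1 at 0.01.

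By level per window, OR4C3 (0.562 reads per window for each 1 M counts), OR2AT4 (0.552) and OR4C5 (0.470) were the 3 highest members in untreated cells. The 3 lowest were OR10A6 (0.128), OR51F1 (0.133) and OR51V1 (0.135), all in the low stretch of the short arm. OR10A6 was at 0.152 ± 0.049 in untreated PEO1 and 0.104 ± 0.016 in untreated PEO4. OR51F1 was at 0.131 ± 0.054 and 0.135 ± 0.026, so that these neighbours in the order did not differ beyond their spread.

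Duplicated members share sequence that short reads cannot place. The pair with the highest protein identity was OR8B2 and OR8B3, at 97.8% (98.7% of coding bases), with an identical run of 265 coding bases. The stretches of 100 bases shared with another member region made up 8.15% and 8.07% of these regions, and 38.0% of the coding stretches. OR8B2 was the lowest member against its own surroundings, at -0.41 on the log2 scale (-0.85 to 0.04), and OR8B3 was at -0.29 (-0.74 to 0.06). OR51A4 and OR51A2 (96.8% identity) were at 0.11 and -0.13, and OR5M10 and OR5M1 (95.6%) were at -0.17 and -0.12. In all, 28 members shared a coding stretch of 100 bases with another member region and 67 shared one anywhere in their region. How reads with several equal alignments were handled is not given in the sources used here, and its part in these values was not tested.

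The comparison of untreated PEO4 with untreated PEO1 asks how the reads near these genes differ between the lines before any drug. Differences in DNA copies and in digestion cannot be told apart in it. At matched GC content the pooled members were slightly lower in PEO4, at -0.45, -0.45 and -0.45, than in PEO1, at -0.43, -0.41 and -0.40. The difference of -0.03 had no overlap between the lines (exact permutation test, two-sided, p = 0.1, the smallest that 3 against 3 libraries can give). Without matching for GC it was -0.12, and against the surroundings within 1 Mb it was -0.03 with overlap (exact permutation p = 0.3). Among the 7 clusters, 1 did not overlap between the lines, OR52B4 to OR52W1 at -1.11 ± 0.03 in PEO4 against -1.02 ± 0.02 in PEO1, where 38.2% of the 1 Mb tiles of the chromosome outside the members did not overlap.

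**Figure D3:**
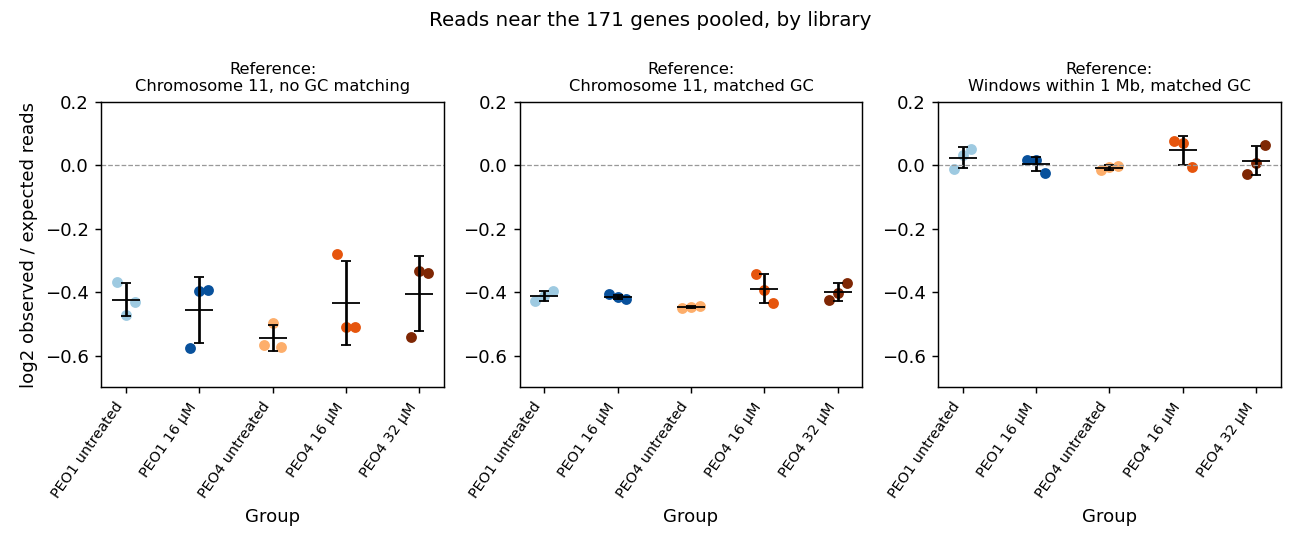
Log2 of observed over expected reads pooled over the windows near the 171 genes, with 1 point per library, horizontal marks for group means and bars for SD (n = 3), against chromosome 11 without GC matching (left), against chromosome 11 at the same GC content (middle) and against windows within 1 Mb at the same GC content (right). The spread between libraries is widest without GC matching, and against the local windows all values lie within 0.08 of 0.

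Counts were then summed over each gene body with 5 kb on both sides and tested with edgeR's quasi-likelihood F test over 19728 gene regions, in which all 171 members passed the filter of 20 reads on average. In untreated cells 7 of 171 members (4.09%) were lower in PEO4 at an adjusted p under 0.05 and 0 were higher, against 23.8% of all gene regions in either direction and 9.82% of all gene regions lower in PEO4. The share of members called was thus below that of all gene regions, a difference that was not tested. It was not particular to the members: of the other 1142 tested genes of chromosome 11, 25 were higher and 33 lower in PEO4. Olfactory receptor genes on other chromosomes (221 tested) had 15 higher and 54 lower. At an unadjusted p under 0.05 there were 18 members (10.5%), all lower in PEO4, against 34.4% of all gene regions in either direction. Their median log2 fold change was -0.24, with 25 of 171 above 0, against 0.00 over all gene regions. With an offset for the GC trend of each library the median was -0.05, 77 were above 0 and 4 members were called, all lower in PEO4. One of them, OR51D1, a class I receptor, was not called without it (-0.73, adjusted p = 0.0701, and with the offset -0.72, adjusted p = 0.0337, edgeR). The share of all gene regions called with the offset is not given here, and the shares above belong to the fit without it. The 4 calls are therefore not read as a result about the members.

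Of the called members, 4 were class I genes of the first cluster and 3 were class II genes. OR56A5 was at 8.24, 5.54 and 4.07 CPM in untreated PEO1 and at 3.48, 2.70 and 2.82 in untreated PEO4. The lines did not overlap, and the log2 fold change was -0.99 ± 0.31 (SE, adjusted p = 0.0195, edgeR). OR52N1 was at 5.75, 6.79 and 8.09 in PEO1 and at 3.17, 3.51 and 3.0 in PEO4, again with no overlap (-1.09 ± 0.35, adjusted p = 0.0262, edgeR). OR51G1 was at 4.86, 3.99 and 4.4 against 1.78, 2.42 and 2.86 (-0.91 ± 0.33, adjusted p = 0.048, edgeR). OR51B5, at 66.63, 70.98 and 73.63 against 58.88, 55.47 and 54.88, changed least (-0.32 ± 0.11, adjusted p = 0.0299, edgeR). Its gene body runs from 5324674 to 5526882 across other receptor genes and part of the beta-globin locus, so that its 235 windows are shared with them.

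The class II genes called were OR5L2, OR4S1 and OR5AP2. OR5L2 was at 7.07, 10.05 and 8.14 CPM in untreated PEO1 and at 4.48, 4.35 and 4.39 in untreated PEO4 (-0.93 ± 0.31, adjusted p = 0.0318, edgeR). OR4S1 was at 7.02, 7.82 and 10.18 against 5.70, 4.42 and 4.52 (-0.77 ± 0.26, adjusted p = 0.0349, edgeR). OR5AP2 was at 8.87, 7.05 and 10.73 against 5.39, 5.09 and 6.23 (-0.67 ± 0.23, adjusted p = 0.0349, edgeR). No library of PEO4 reached a library of PEO1 in these 3 genes. With the GC offset the calls of OR56A5 (-0.77, adjusted p = 0.0445), OR52N1 (-0.87, adjusted p = 0.016) and OR5L2 (-0.71, adjusted p = 0.0234) held, while those of OR51B5, OR4S1, OR5AP2 and OR51G1 did not (adjusted p = 0.221, 0.0758, 0.141 and 0.108). The number of calls rested on single libraries, falling to 0 without the second untreated PEO4 library, to 1 without the third, to 2 without the third untreated PEO1 library, to 3 without the second and to 4 without the first untreated PEO4 library. Over all omissions of 1 library it lay between 0 and 9, so that it also rose. The number over all gene regions is not given for these fits, so the changes are not read as particular to the members. The highest members of PEO4 by p-value, OR52K2 (0.47 ± 0.30, adjusted p = 0.269), OR5M11 (0.32 ± 0.24, adjusted p = 0.35) and OR52A1 (0.42 ± 0.34, adjusted p = 0.4), did not pass.

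The cisplatin comparisons ask whether treatment shifts reads towards or away from these genes. At matched GC content the pooled members of PEO1 were at -0.43, -0.41 and -0.40 untreated and at -0.41, -0.42 and -0.42 after 16 µM, a difference of -0.00 with overlap (exact permutation test, p = 0.9). In PEO4 they were at -0.45, -0.45 and -0.45 untreated, at -0.34, -0.39 and -0.43 after 16 µM and at -0.43, -0.40 and -0.37 after 32 µM. The differences of 0.06 and 0.05 had no overlap with untreated PEO4 (exact permutation p = 0.1 in both, the smallest possible), and the first was 0.03 without the first library after 16 µM, while 32 µM and 16 µM overlapped (difference -0.01, exact permutation p = 0.8). The response of PEO4 exceeded that of PEO1 by 0.06 at 16 µM and by 0.05 at 32 against 16 µM, again without overlap (exact permutation p = 0.1 in both), and the first of these was 0.04 without that same library. These comparisons share the untreated libraries. Against the surroundings within 1 Mb the PEO4 responses were 0.06 and 0.02 with overlap (exact permutation p = 0.2 and 0.6).

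By cluster, the libraries after 16 µM and the untreated libraries of PEO1 did not overlap in 2 of 7 clusters, against 21.4% of tiles. OR52B4 to OR52W1 was at -1.02 untreated and -1.11 after 16 µM and OR9Q1 to OR5B21 at -0.07 and 0.01, each with an adjusted exact permutation p of 0.35. In PEO4 after 16 µM, OR9Q1 to OR5B21 was 0.12 higher and OR6X1 to OR8A1 was 0.11 higher than untreated, 2 of 7 against 18.3% of tiles (adjusted exact permutation p = 0.35). After 32 µM, 0 of 7 clusters were without overlap, against 16.8% of tiles, and between the doses it was 1 of 7, OR52B4 to OR52W1 (0.05), against 10.7%. The response differences gave 2 of 7 clusters at 16 µM, against 37.4% of tiles, and 2 of 7 at 32 against 16 µM, against 33.6%. The counts were not tested against the tiles, and no adjusted exact permutation p was below 0.35.

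Single genes gave no call after cisplatin. In each of the 6 comparisons that involve treatment, 0 of 171 members and 0.0% of the 19728 gene regions had an adjusted p under 0.05 with edgeR, and DESeq2 called 0 members. At an unadjusted p under 0.05, 11 members were counted in PEO1 after 16 µM (6.43%, against 5.7% of all gene regions), 10 in PEO4 after 16 µM (5.85%, against 2.58%), 15 after 32 µM (8.77%, against 6.52%) and 10 between the doses (5.85%, against 2.35%). For the response differences there were 10 at 16 µM (5.85%, against 7.51%) and 18 at 32 against 16 µM (10.5%, against 8.27%). All members counted in PEO4 against untreated and in both response differences were higher. The shares of all gene regions hold both directions, and their split by direction is not given here. With the GC offset there were 17 in PEO1 after 16 µM (7 higher), 7 in PEO4 after 16 µM (6 higher), 8 after 32 µM (4 higher) and 11 between the doses (7 higher). The response differences gave 12 at 16 µM (8 higher) and 9 at 32 against 16 µM (7 higher). The offset thus raised some counts and lowered others, and the shares of all gene regions with it are not given here.

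The member changes lay mostly on 1 side of 0, and their medians were closer to 0 with an offset for the GC trend of each library. The median log2 fold change of the members was -0.10 in PEO1 after 16 µM, 0.17 in PEO4 after 16 µM and 0.23 after 32 µM, with 65, 117 and 132 of 171 above 0. With the GC offset these medians were -0.05, 0.04 and 0.04, with 70, 96 and 91 above 0, so that in PEO1 the count changed little. The response differences had medians of 0.24 and 0.29, with 131 and 134 of 171 above 0, and 0.07 and 0.04 with the offset, with 98 and 90 above 0. Olfactory receptor genes on other chromosomes (221 tested, median GC content 38.0%) gave 0.19 for the median response difference at 32 against 16 µM and -0.02 with the offset. The other 1142 tested genes of chromosome 11 had -0.06 and 0.02.

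**Figure D4:**
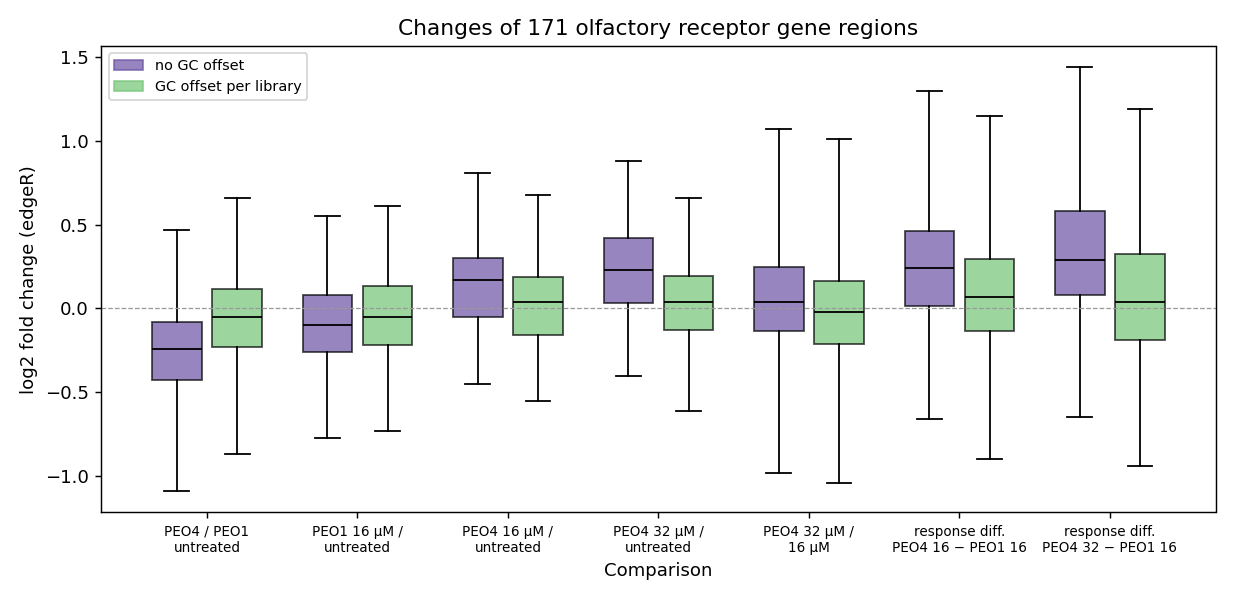
Log2 fold changes of the 171 gene regions in 7 comparisons (edgeR), without (purple) and with (green) an offset for the GC trend of each library; boxes show quartiles and medians and whiskers the full range. The medians of up to 0.29 in size without the offset lie within 0.07 of 0 with it.

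Split by class, the response difference at 32 against 16 µM was 0.43 in the median of the 55 class I members and 0.23 in that of the 116 class II members, and with the GC offset 0.22 and -0.01. In class I, 43 of 55 members were above 0 without the offset. The class I medians within the lines were -0.22 in PEO1 after 16 µM and 0.25 in PEO4 after 32 µM (-0.17 and 0.06 with the GC offset). Those of class II were -0.08 and 0.22 (-0.02 and 0.01 with the GC offset). The difference between the classes was not tested, since all class I genes lie in 1 cluster. The beta-globin genes inside that cluster, which are erythroid genes, gave 0 of 5 calls after cisplatin, a median of -0.05 for the same response difference (-0.26 with the GC offset) and 2 of 5 above 0. In untreated cells 2 of these 5 were lower in PEO4, HBE1 (-0.32, adjusted p = 0.0232, edgeR) and HBG2 (-0.30, adjusted p = 0.0434, edgeR), whose bodies overlap that of OR51B5.

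The members nearest to a call after cisplatin were named by p-value. In PEO4, OR52A5, a class I receptor, was at 4.83, 4.42 and 4.94 CPM untreated, at 7.53, 3.62 and 5.84 after 16 µM and at 8.37, 8.64 and 9.03 after 32 µM. Its 32 µM libraries all lay above the untreated ones (0.88 ± 0.27, adjusted p = 0.723, edgeR), while those at 16 µM lay on both sides. In PEO1 it was at 9.5, 5.49 and 8.36 untreated and at 5.04, 6.62 and 7.07 after 16 µM. The untreated lines overlapped in none of their libraries, although OR52A5 was not among the members called between them. The response difference was 1.19 ± 0.38 (adjusted p = 0.579, edgeR), followed by OR6T1 (1.15 ± 0.38) and OR56A5 (1.30 ± 0.44), at the same adjusted p. With flanks of 20 kb in place of 5 kb, OR52A5 was at 0.14 in PEO4 after 32 µM and at 0.25 for the response difference. In PEO1, OR5A2 was at 17.16, 14.97 and 15.74 untreated and at 6.45, 10.30 and 11.54 after 16 µM, with no overlap (-0.76 ± 0.24, adjusted p = 0.795, edgeR).

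No other member of the same ranking passed either. OR6M1 (-0.74 ± 0.28) and OR5D16 (-0.67 ± 0.27) were lower in PEO1 after 16 µM, and the neighbours OR4X1 (0.51 ± 0.24) and OR4X2 (0.55 ± 0.26) were higher, with adjusted p-values of 0.811 to 0.864 (edgeR). In PEO4, OR5AS1 (0.65 ± 0.24), OR10A6 (0.79 ± 0.33) and OR5D18 (0.71 ± 0.30) led after 16 µM, all with an adjusted p of 0.979 (edgeR), and OR52E6 (0.83 ± 0.31) and OR5T3 (0.66 ± 0.25) came after OR52A5 at 32 µM, with an adjusted p of 0.723 (edgeR). In OR10A6 the CPM were 3.35, 3.82 and 2.68 untreated and 6.81, 6.48 and 3.98 after 16 µM, but 3.47, 3.76 and 1.46 after 32 µM, so that the libraries of the higher dose overlapped the untreated ones. Genes that act downstream of the receptors, such as GNAL, the olfactory G protein, and CNGA4, a subunit of the olfactory ion channel, were among 14 olfactory signalling genes of which 0 were called after cisplatin (median -0.01 for the response difference at 32 against 16 µM), and of which 2 were higher and 2 lower in untreated PEO4, where 23.8% of all gene regions were called.

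Within the members, windows with their midpoint in coding sequence were compared with the other member windows, both against local windows of the same GC content. This comparison was also added after the data were examined. The 183 coding windows had 43.1% GC, against 37.3% in the other member windows. Coding minus other was 0.05 ± 0.08 (SD, n = 3) in untreated PEO1, -0.12 ± 0.08 in PEO1 after 16 µM, -0.21 ± 0.03 in untreated PEO4, -0.27 ± 0.06 in PEO4 after 16 µM and -0.13 ± 0.08 after 32 µM. Each set against its GC expectation, coding windows thus stood below the other member windows in the mean of 4 of the 5 groups. The gap was up to 0.27 on the log2 scale, and it was absent in untreated PEO1. The lines did not overlap when untreated (difference -0.26, exact permutation p = 0.1, adjusted over 7 comparisons 0.175), nor did PEO1 before and after 16 µM (-0.16, adjusted p = 0.175), nor PEO4 after 32 and after 16 µM (0.13, adjusted p = 0.175), nor the responses at 32 against 16 µM (0.24, adjusted p = 0.175). In PEO4, neither 16 µM (-0.06, adjusted p = 0.3) nor 32 µM (0.08, adjusted p = 0.233) was apart from untreated.

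Along the gene, every group but untreated PEO1 had its lowest value in the first kb after the coding start. In the first kb after the coding start, log2 observed over expected was 0.05 ± 0.05 in untreated PEO1 and -0.11 ± 0.08 in PEO1 after 16 µM. It was -0.19 ± 0.02 in untreated PEO4, -0.16 ± 0.09 in PEO4 after 16 µM and -0.11 ± 0.03 after 32 µM. In the kb before the start the 5 groups were between -0.10 and 0.06, and in the kb from 1 to 2 after it they were between -0.07 and 0.04. Between 1 and 2 kb before the start they were between 0.04 and 0.12. Coding sequence is also where members resemble each other most, as the near-identical pairs show, and the part of shared sequence in these values was not tested.

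**Figure D5:**
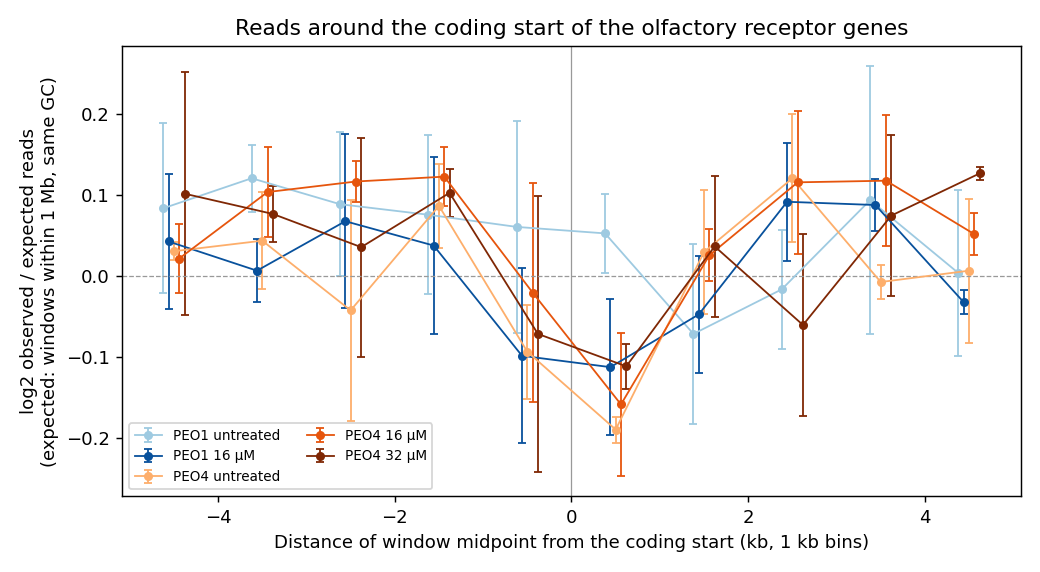
Log2 of observed over expected reads (expected from windows within 1 Mb at the same GC content) in 1 kb bins from 5 kb before to 5 kb after the coding start, as group means with SD bars (n = 3 libraries). In the first kb after the start, 4 groups lie between -0.11 and -0.19 and untreated PEO1 lies at 0.05.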

How the data were processed

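Pt-exo-seq reads from 15 libraries (5 groups of 3) were trimmed with BBDuk, aligned to hg19 with Bowtie2, filtered against the ENCODE blacklist and deduplicated with Picard by the authors. The deposited file held raw counts of reads per 1 kb window (step 900 bp), not normalised. Counts were used as deposited, 27.7 to 56.6 M per library, on chromosomes 1 to 22 and X. Genes came from GENCODE release 44 mapped to GRCh37, and GC content from the GRCh37 reference. Protein identity was computed from translated coding sequences.

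Observed over expected reads used windows with a read in at least 1 library, and expected counts the mean of reference windows in the same GC step (1 percentage point). Libraries were compared by exact two-sided permutation tests, adjusted by Benjamini-Hochberg over the clusters. Gene regions with a mean count of at least 20 were tested with edgeR 4.0.16 (TMM, 1 fit of 5 groups, Benjamini-Hochberg over all 19728 regions), with DESeq2 1.42.0 and limma 3.58.1 (prior count 2) as alternatives, in R 4.3.3, and the fit was checked on simulated counts. Levels per window were divided by all counts of the library, while CPM of single genes came from the TMM-scaled gene region totals. Other alternatives changed the scaling, the filters, the flanks, the reference windows, the GC matching and the libraries used. Members named in the text were the 3 with the smallest p-value in each direction of 5 comparisons, the 3 highest and 3 lowest levels and the 3 most identical pairs, besides all 7 called members, the members named beside a sequence, and OR8B2 as the lowest against its surroundings. The members, lists and rules were chosen with earlier results of these data known.

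Libraries with the same replicate number did not deviate together in a common direction across gene regions, and their correlations ranged from -0.548 to 0.466 between groups and from -0.047 to 0.041 after GC correction, so the numbers were not taken as pairs. Counts cover sampling of reads only, since no molecular identifiers are mentioned.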

Additional observations from a re-analysis of the deposited data

Results flagged for a closer look

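Among the values of the clusters and the pooled members (12 for each response difference) and the 6 genes named for the response difference at 32 against 16 µM, there were 7 in which every difference within PEO4 lay on the opposite side of 0 from every difference within PEO1, each treated library being set against the mean of the untreated libraries of its line. The cluster OR52B4 to OR52W1 at matched GC content was 0.01 to 0.02 above untreated in PEO4 after 16 µM and 0.03 to 0.10 above it after 32 µM, while PEO1 after 16 µM lay between -0.12 and -0.04. The differences between the lines were 0.103 at 16 µM and 0.152 at 32 against 16 µM (adjusted exact permutation p = 0.35 in both). The cluster OR2AG2 to OR2D3 lay on the other side, at -0.16 to -0.06 in PEO4 after 32 µM and 0.07 to 0.34 in PEO1, a difference of -0.318 (adjusted exact permutation p = 0.35). Between the untreated lines both clusters differed in the reverse direction. OR52B4 to OR52W1 was at -1.105 in PEO4 against -1.022 in PEO1, and OR2AG2 to OR2D3 at -0.938 against -1.04. These untreated means enter the differences, and their part in the opposition was not tested.

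On the scale of log2(CPM + 0.1), 4 of these 6 genes did the same, and this opposition of single libraries was not tested. The 6 were chosen by their p-value for that difference. For that difference the opposition was seen in 20 of all 171 members (11.7%), against 8.4% of all gene regions. For the response difference at 16 µM it was seen in 15 members (8.8%), against 9.3% of all gene regions. No such share of tiles is given here for the clusters. In the difference used to choose the 6 genes, OR52A5 gave 0.81 to 0.92 in PEO4 and -0.58 to -0.10 in PEO1, a difference of 1.156. OR6T1 gave 0.31 to 0.89 and -1.24 to -0.22 (difference 1.168), and OR56A5 gave 0.26 to 1.08 and -0.91 to -0.32 (difference 1.208). OR52A1 went the opposite way, with -0.88 to -0.03 in PEO4 and 0.36 to 0.62 in PEO1 (difference -0.86). Between the untreated lines these 4 genes also differed in the reverse direction. The log2 fold changes of untreated PEO4 against PEO1 were -0.72 for OR52A5, -0.71 for OR6T1, -0.99 for OR56A5 and 0.42 for OR52A1 (edgeR). Among them OR56A5 was called between the untreated lines. The part of these untreated values in the opposition was not tested. In the edgeR fit over all gene regions the adjusted p was 0.579 for OR52A5, OR6T1 and OR56A5 and 0.627 for OR52A1.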

How the results depend on the processing

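The 7 members called between the untreated lines were 16 with flanks of 20 kb, 1 with the gene body alone, 12 with DESeq2, 15 with only the compared groups in the fit and 4 with the GC offset. DESeq2 called 5177 of all 19728 gene regions in that comparison. For the other alternatives the number over all gene regions is not given here, so their counts are not read as results about the members. Leaving out single libraries gave 0 to 9 calls. The 0 calls in the 6 cisplatin comparisons held under all 26 alternatives each. With the replicate number as a block the untreated comparison gave 4 calls, and 4 with block and GC offset together, an alternative chosen after seeing the data. Requiring all 3 same-numbered pairs of clusters to have 1 sign, in place of no overlap, gave 2 clusters for the untreated lines, 4 for PEO1, 2 for PEO4 after 32 µM and 2 between doses, where 3 pairs cannot give an exact p below 0.25. The numbers do not pair the libraries.

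Pooled differences without GC matching were -0.122 for the untreated lines, -0.032 for PEO1, 0.112 and 0.140 for PEO4 after 16 and 32 µM, 0.029 between doses, and 0.144 and 0.172 for the response differences. With the reference on all chromosomes the untreated difference was -0.072. With windows within 1 Mb as reference it was -0.021 for PEO1 and 0.022 for PEO4 after 32 µM. With the gene body alone it was -0.092 for the untreated lines, -0.028 for PEO1 and 0.070 for the response at 32 µM. With flanks of 20 kb it was 0.015 for PEO1 and 0.017 for the response difference at 16 µM.

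Clusters without overlap, in the order untreated lines, PEO1, PEO4 after 16 µM, PEO4 after 32 µM, between doses, response differences at 16 and at 32 µM, were 4, 0, 1, 1, 0, 1 and 2 without GC matching. With windows within 1 Mb as reference they were 0 for the untreated lines, 1 after 32 µM and 0 between doses, and with all chromosomes 4 for the untreated lines and 2 after 32 µM. With a mean count of at least 5 they were 1 for PEO1 and 0 between doses. With the gene body alone they were 2 for the untreated lines, 4 after 32 µM, 3 between doses and 4 for the response at 32 µM. With flanks of 20 kb they were 0 for PEO4 after 16 µM, 2 after 32 µM, 2 between doses and 4 for the response at 32 µM. With clusters ended at gaps of 1 Mb (5 tested) they were 1 for PEO1, 1 for PEO4 after 16 µM, 0 between doses and 1 for the response at 32 µM. Tile shares are given above for the main setting only. The cluster counts of this section therefore have no share of the chromosome beside them and cannot be set against it.

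Leaving out 1 library gave, in the same order, pooled differences of -0.042 to -0.027, -0.010 to 0.005, 0.034 to 0.079, 0.033 to 0.060, -0.032 to 0.013, 0.036 to 0.082 and 0.035 to 0.062, and 1 to 2, 2 to 4, 2 to 4, 0 to 2, 1 to 2, 1 to 3 and 2 to 3 clusters. The count went to 2 for the untreated lines without untreated PEO1 1 or 2 or untreated PEO4 2, to 4 for PEO1 without untreated PEO1 1, to 4 for PEO4 after 16 µM without its first library and to 1 for the response at 16 µM without untreated PEO4 3. After 32 µM it went to 2 without untreated PEO4 1 or 3 or the first or second treated library and to 1 without the third of 32 µM, and between doses to 2 without the first or second library of 16 µM or replicate 1 or 3 of 32 µM.

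Directions turned for the cluster OR52B4 to OR52W1 between doses against windows within 1 Mb (-0.002), for OR2AG1 after 32 µM with the gene body alone (0.140) and, with flanks of 20 kb, for OR52A1 in the untreated lines (-0.150), after 32 µM (0.25) and in the response at 32 µM (0.280), for OR51Q1 (0.120) and OR5D13 (0.180) in PEO4 after 16 µM and for OR4X1 in the response at 32 µM (0.030). The cause of these changes was not tested. Wider flanks take in windows of neighbouring genes. Of the 30 values of single genes named by p-value, 29 moved by over 1.5 times with flanks of 20 kb and 6 with the GC offset. Member regions held 58.7 to 2238.9 reads on average, which limits the precision of the smaller ones.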
